A study of Mus musculus with 12 samples.

Results

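The cytosolic ribosomal protein genes were the protein-coding genes of Gencode vM1 with an Rpl, Rps or Rplp symbol, and they were selected on a measured value, a mean raw count of 10 or more over the 12 libraries. Of 82 genes with such a symbol, 79 passed, out of 37310 genes in the count files. They comprised 47 genes of the large and 32 of the small subunit. The 3 genes below the threshold were Rpl10l, with no read in any library, Rpl39l, with a mean of 0.583 reads, and Rpl3l, with a mean of 1.17 reads. The lowest genes above it were Rps27l, with a mean of 32.0 reads, and Rps4y2, with a mean of 129 reads. The symbol rule leaves out genes such as Rpsa, Fau, Rpl36al and Gnb2l1, which also encode ribosomal or ribosome-bound proteins.

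A cytosolic ribosome is built of a large and a small subunit, and each ribosomal protein is usually present in a single copy per ribosome, apart from the P proteins of the stalk. The messages of these genes are among the most abundant of a cell and typically begin with a C followed by a run of pyrimidines, the TOP motif, through which their translation is raised or lowered together by the mTOR pathway. In neurons they are translated in the cell body and are also found in dendrites and axons. One of the proteins, L10a, is the one that carries the GFP tag in the mice of this study, so the genes encode the very particle that was purified.

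Translating ribosome affinity purification (TRAP) was carried out on ventral hippocampus (vHPC) of male C57BL/6 mice. All groups carried the Cre-dependent eGFP-L10a gene in Rosa26 and received retrograde HSV-hEf1α-Cre in nucleus accumbens (NAc) 3 weeks before collection. KO mice were homozygous for floxed FosB (FosB fl/fl), and WT mice were their littermates without the floxed allele. Libraries of both kinds, TRAP and input, were made from each of 3 WT pools (numbered 1 to 3) and 3 KO pools (numbered 2 to 4), which gives 4 groups of 3. Pools held 3 mice by the labels and 3 to 4 by the methods. The excision by this vector is described by the study as not restricted to the circuit, and input holds all cells of the punch, so an input value mixes recombined and other cells.

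Reads on genes ran from 3416030 to 5614089 per library. Levels are given as CPM, the counts of a gene relative to the total of its library, with TMM scaling over the 12 libraries, and a mean is followed by its SD over 3 libraries. Fosb, the targeted gene, had 39.2 ± 6.67 CPM in TRAP of WT and 23.2 ± 5.47 CPM in TRAP of KO, every KO library below every WT library, although its adjusted p was 0.337 with edgeR's quasi-likelihood test; counts over the whole gene do not separate the floxed exons from the others. The 5 astrocyte markers summed to 34.3 to 55.1 CPM in WT TRAP and 33.8 to 44.1 CPM in KO TRAP, against 371 to 407 CPM in WT input and 371 to 468 CPM in KO input. The 3 GABA neuron markers summed to 94.0 to 143 CPM in TRAP of WT and 79.1 to 386 CPM in TRAP of KO, with 411 to 472 CPM in input of WT and 443 to 558 CPM in input of KO. No marker of either list was at 0 in TRAP.

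The tract of pyrimidines for which these messages are known was searched from RefSeq start sites (build GRCm38.p6) in windows from 10 bases before to 20 bases after the start. Of the 79 genes, 57 were matched by symbol, with 68 starts. A C followed by 6 or more bases that are all C or T lay in the window at 29 of the 68 starts (42.6%), compared with 13.5% of all 32851 starts of the table, on the strand of the gene only, and 28 of the 57 genes had none in any window. A C exactly at the annotated start followed by 4 pyrimidines was found at 19.1% of the starts of these genes and at 2.51% of all starts. The windows of 6 genes that the results below turn on are shown with that tract in capitals: Rpl10a, Rpl18 and Rpl15 were high in TRAP, Rps12 was low in TRAP, Rps9 differed between genotypes, and Rpl28 is its nearest neighbour among these genes.
Rpl10a: gCCCCCCCagcggccgcaaactgcagcgcc
Rpl18: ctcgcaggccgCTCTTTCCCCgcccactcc
Rpl15: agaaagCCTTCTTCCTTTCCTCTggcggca
Rps12: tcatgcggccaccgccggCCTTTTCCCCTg
Rps9: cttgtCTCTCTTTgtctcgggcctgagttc
Rpl28: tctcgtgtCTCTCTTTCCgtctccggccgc

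On GRCm38.p6 these windows are chr17:28328461-28328490 on the plus strand for Rpl10a, chr7:45718061-45718090 on the plus strand for Rpl18, chr14:18270967-18270996 on the minus strand for Rpl15, chr10:23787190-23787219 on the minus strand for Rps12, chr7:3704031-3704060 on the plus strand for Rps9 and chr7:4792955-4792984 on the plus strand for Rpl28. Rpl10a has another start in the table, without such a tract. The tract ran over 17 bases in Rpl15, 11 in Rps12, 10 in Rpl18 and Rpl28, 8 in Rps9 and 7 in Rpl10a. Rpl37, the gene with the lowest ratio of TRAP to input, had no tract in its window. The tract covered the annotated start base in 19 of the 29 genes with one, lay wholly before it in 3 and wholly after it in 7. That of Rpl10a ended 3 bases before the start, so it is not in a message that begins there, and that of Rps12 began 8 bases after it, whereas those of Rpl15, Rps9 and Rpl28 ran over the start and that of Rpl18 began on the next base. The 29 genes with a tract had a median log2 ratio of TRAP to input of 0.08, compared with -0.02 for the 28 matched genes without it.

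Most of these messages have processed copies elsewhere in the genome, which bears on how many of their reads could be counted, since reads with several alignments were set aside. Every 75-base stretch of one transcript per gene was aligned to mm9, and in the median gene 58.2% of the stretches had an identical copy elsewhere. Rps3 had none, whereas 99.6% of the stretches of Rps27 and 98.0% of those of Rps12 had one. In 46 of the 79 genes more than 50% of the stretches had an identical copy. The whole transcripts aligned to a median of 9 other places, and 68 genes matched an annotated pseudogene. A low CPM of a gene with many identical stretches can therefore stand for uncounted reads, which touches levels between genes. Between libraries, the log2 ratio of TRAP to input showed a Spearman correlation of -0.02 across the 79 genes with the percentage of identical stretches, as a description across genes that share libraries.

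All 79 genes together took 1.17% ± 0.139 of the TRAP counts in WT and 1.18% ± 0.0455 in KO, and 1.17% ± 0.0590 of the input counts in WT and 1.15% ± 0.161 in KO (SD, n = 3 each). Single libraries held between 0.971% and 1.29%. The ranges of the 4 groups overlapped, and the group means lay closer together than the libraries of any single group. Without the genes of the mitochondrial genome the shares were 1.17% ± 0.139 in WT and 1.18% ± 0.0460 in KO for TRAP, below 1.25% ± 0.0474 in WT and 1.25% ± 0.182 in KO for input, with ranges that still overlapped in each genotype. The difference in summed share between TRAP and input was not tested.

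**Figure D1:**
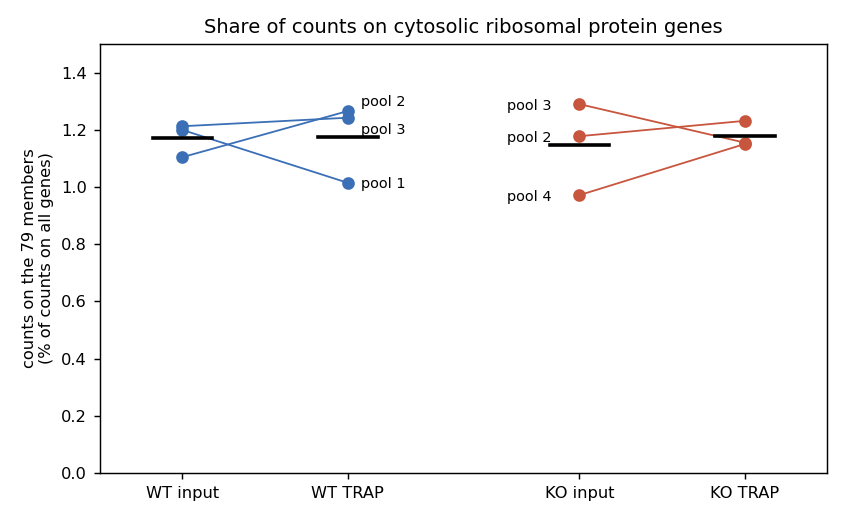
Percentage of the counts of each library that fell on the 79 cytosolic ribosomal protein genes (vertical axis, from 0), by group, with a line joining the input and TRAP library of each pool and a black bar at the group mean (n = 3). Pool 1 of WT in TRAP, at 1.01%, and pool 4 of KO in input, at 0.971%, lie below the other libraries of their groups.

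The genes moved together from library to library within a group. In TRAP of WT pool 1, only 5 of the 79 genes lay above their group mean, and the median gene was 0.20 lower on the log2 scale of CPM. In input of KO pool 4 it was again 5 of 79, with the median gene 0.23 lower. In input of KO pool 3, 67 genes lay above the group mean, with a median of 0.17, and in TRAP of WT pool 2, 69 did, with a median of 0.12. The median of all genes tested lay between -0.01 and 0.01 of its group mean in each library after rounding. In the other library of the same pools, the input of WT pool 1 had 38 genes above its group mean and the TRAP of KO pool 4 had 28. The median shifts of the TRAP and input libraries were 0.08 and 0.06 in WT pool 3 and 0.04 and 0.08 in KO pool 2. They were 0.12 and -0.05 in WT pool 2 and -0.01 and 0.17 in KO pool 3. The depth of the TRAP library of WT pool 1 was the highest of all, at 5614089 reads on genes, and the input library of KO pool 4 had 4592090 reads and the highest percentage of reads on no gene, 27.1%. The part of these in the shifts was not tested.

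Levels were compared between genes per kilobase of annotated exon, as a mean over the 12 libraries. The highest were Rplp1, a stalk protein, at 707 CPM per kilobase, Rpl38 at 431 and Rpl8 at 420, with a median of 76.9 over the 79 genes. The lowest were Rps27l, a like copy of Rps27, at 9.48 CPM per kilobase, Rps15a at 16.2 and Rpl18 at 15.3. The annotated exons of Rps15a sum to 6262 bases and those of Rpl18 to 4042 bases, against transcripts of 640 and 679 bases, so their low values rest partly on the length used. Per kilobase of transcript with no other place in the genome at up to 2 mismatches, the highest of the genes with a value were Rplp1 at 6360 CPM, Rpl38 at 3961 and Rps15 at 3215, and Rpl8, at 508, was not among them. Rps15a stood at 496 and Rps27l at 23.4 on this scale, and for Rpl18 too few such stretches remained to give a value, so the order of the genes depends on the length used. The gene models of Rpl24 and Rpl13a hold coding sequences of up to 3153 and 1272 bases beside the usual 474 and 612, and reads of these genes may come from a neighbour that shares the model.

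To ask whether tagged ribosomes carried these messages in other proportions than the tissue did, TRAP was compared with input over both genotypes. Ribosomal protein messages lay on both sides of the input level, with a median log2 ratio of -0.004 over the 79 genes, against -0.01 over all 13214 genes tested; without single pools the median of the 79 ran from -0.04 to 0.05. Their ratios ran from -0.55 to 0.69, and their SD of 0.28 was smaller than the SD of 0.99 over all genes. All 79 genes were tested; 15 were higher and 9 were lower in TRAP at an adjusted p under 0.05 with edgeR's quasi-likelihood test. These are 19.0% and 11.4% of the genes, compared with 20.1% and 22.7% of all genes tested (42.8% in both directions), so the share of higher genes was near the background and that of lower genes was under it. Without a filter on expression the order turned, with 29 genes called in both directions (36.7%) against 28.1% of 22398 genes. Of 47 large-subunit genes, 11 were higher and 5 lower, with a median of -0.004, and of 32 small-subunit genes 4 were higher and 4 lower, with a median of -0.02. The same direction in all 6 pools was seen for 13 genes upward and 6 downward, 24.1% of the genes, compared with 38.6% of all genes tested. Of the 24 genes called, 18 passed the test in each of the 14 alternatives that used both genotypes.

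**Figure D2:**
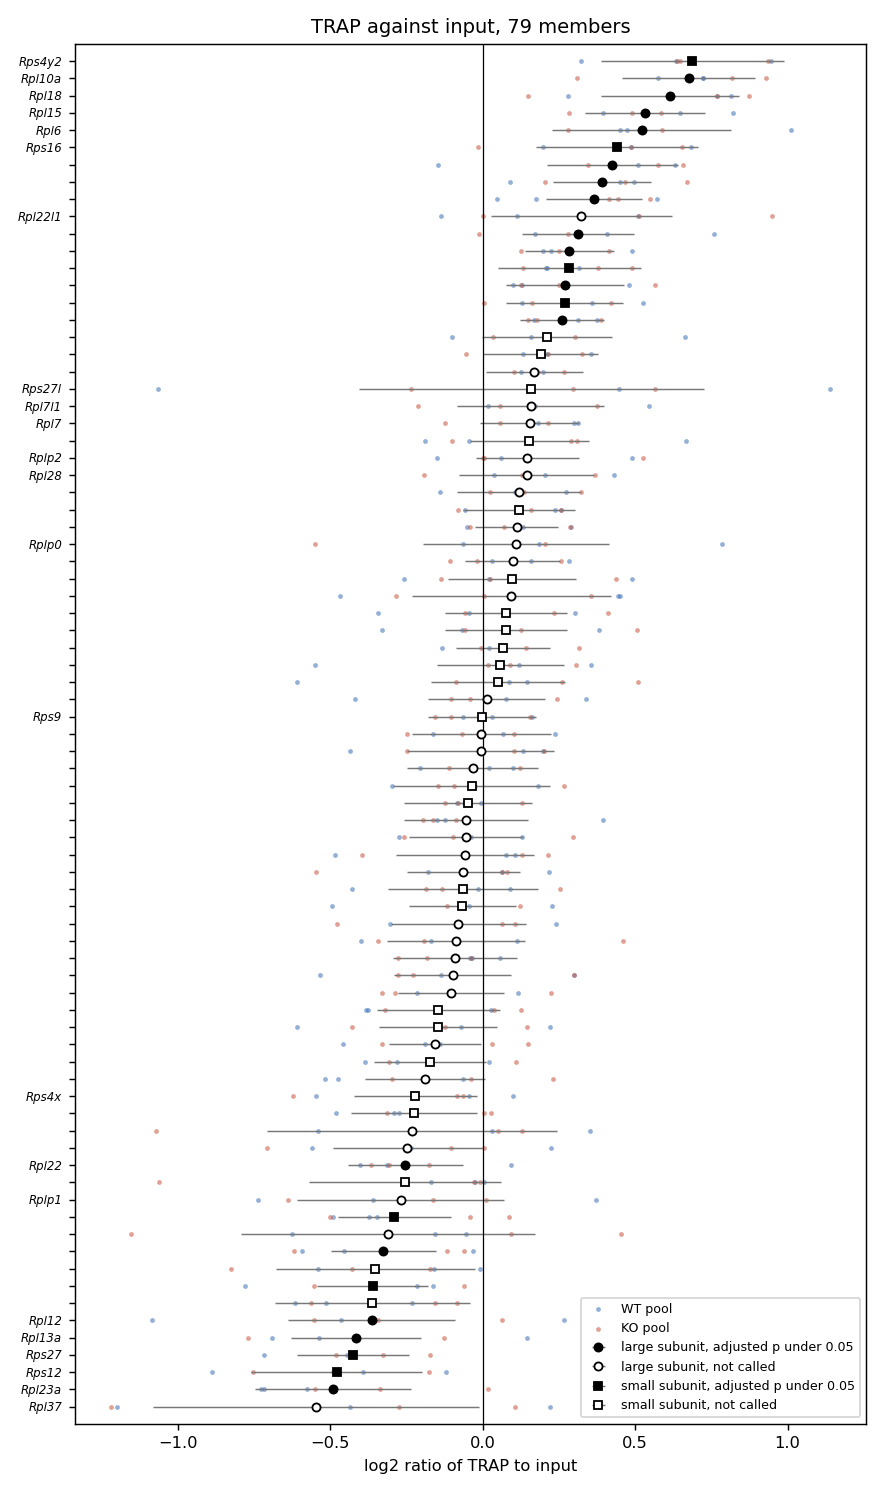
Log2 ratio of TRAP to input for each of the 79 genes, ordered by the fitted ratio, with some of the genes described in the text named; large black or open symbols are the fitted values with 95% confidence intervals, circles for the large and squares for the small subunit, filled where the adjusted p was under 0.05, and small dots are the 6 pools. The fitted ratios run from -0.55 (Rpl37) to 0.69 (Rps4y2), and most dots of the middle rows fall on both sides of 0.

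Rpl10a (mm9 chr17:28465416-28467977, plus strand), the gene of the tagged protein, stood at 63.3, 71.9 and 79.6 CPM in TRAP of WT pools 1 to 3 and at 75.8, 84.8 and 91.6 CPM in TRAP of KO pools 2 to 4. In input it stood at 38.1, 43.4 and 53.3 CPM in WT and at 61.0, 47.9 and 47.9 CPM in KO. Every TRAP library was above every input library. The log2 ratio was 0.68 (SE 0.11, 1.60-fold, adjusted p = 7.19e-06 with edgeR), with 0.67 in WT and 0.68 in KO libraries alone, and it was positive in all 6 pools. Of the 13214 genes tested, 616 had a higher ratio. Where the L10a part of the transgene has the sequence of the endogenous gene, its reads and those of Rpl10a cannot be told apart in these counts, and 84.8% of the stretches of Rpl10a have an identical copy elsewhere in mm9.

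The other genes at the upper end were Rps4y2, Rpl18, Rpl15, Rpl6 and Rps16. Rps4y2 (mm9 chr6:148303178-148304120, plus strand), an autosomal single-exon relative of the X-linked small-subunit gene Rps4x, had 32.2 ± 4.42 CPM in WT TRAP and 43.0 ± 3.97 CPM in KO TRAP, compared with 21.1 ± 6.95 CPM in WT input and 25.7 ± 4.34 CPM in KO input. Its log2 ratio was 0.69 (SE 0.15) and positive in 6 of 6 pools, while Rps4x itself had a ratio of -0.22 (SE 0.10, adjusted p = 0.0727 with edgeR). With the pool as a block Rps4x was lower in TRAP by the test (-0.21, adjusted p = 0.04998 with edgeR), as it was without WT pool 2 (-0.29, adjusted p = 0.0286) and without a filter on expression (-0.21, adjusted p = 0.0445). Rpl18 rose by 0.61 (SE 0.11), Rpl15 by 0.53 (SE 0.10) and Rpl6 by 0.52 (SE 0.14) on the log2 scale, each higher in 6 of 6 pools. The ratios of Rpl6 ran from 0.28 in KO pool 2 to 1.01 in WT pool 1, where the input library held 87.1 CPM against 157 and 174 CPM in the other WT input libraries. Rps16 rose by 0.44 (SE 0.13) and was higher in 5 of 6 pools.

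At the lower end stood Rpl37, Rpl23a, Rps12, Rps27, Rpl13a and Rpl12. Rps12 (mm9 chr10:23504990-23507015, minus strand), a small-subunit gene, had 54.9, 87.7 and 82.0 CPM in WT and 85.6, 73.3 and 62.7 CPM in KO in TRAP, against 102, 95.3 and 108 CPM in WT input and 120, 124 and 70.8 CPM in KO input. Its log2 ratio was -0.48 (SE 0.13, adjusted p = 0.00656 with edgeR) and negative in 6 of 6 pools, although the input library of KO pool 4 lay within the range of TRAP. Rps27 fell by 0.43 (SE 0.09) in 6 of 6 pools, and Rpl23a fell by 0.49 (SE 0.13) and Rpl13a by 0.42 (SE 0.10), each in 5 of 6 pools. Rpl37 had the lowest ratio of all, -0.55, but its SE of 0.24 left it uncalled (adjusted p = 0.0944 with edgeR). Its input libraries ranged from 191 to 461 CPM, whereas its TRAP libraries lay between 196 and 254 CPM. Rpl12 fell by 0.36 (SE 0.13), and its adjusted p of 0.0305 became 0.0786 with the pool as a block, 0.0539 with pseudogene counts added, and 0.0914 to 0.153 without WT pool 1, WT pool 3, KO pool 2 or KO pool 3.

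**Figure D3:**
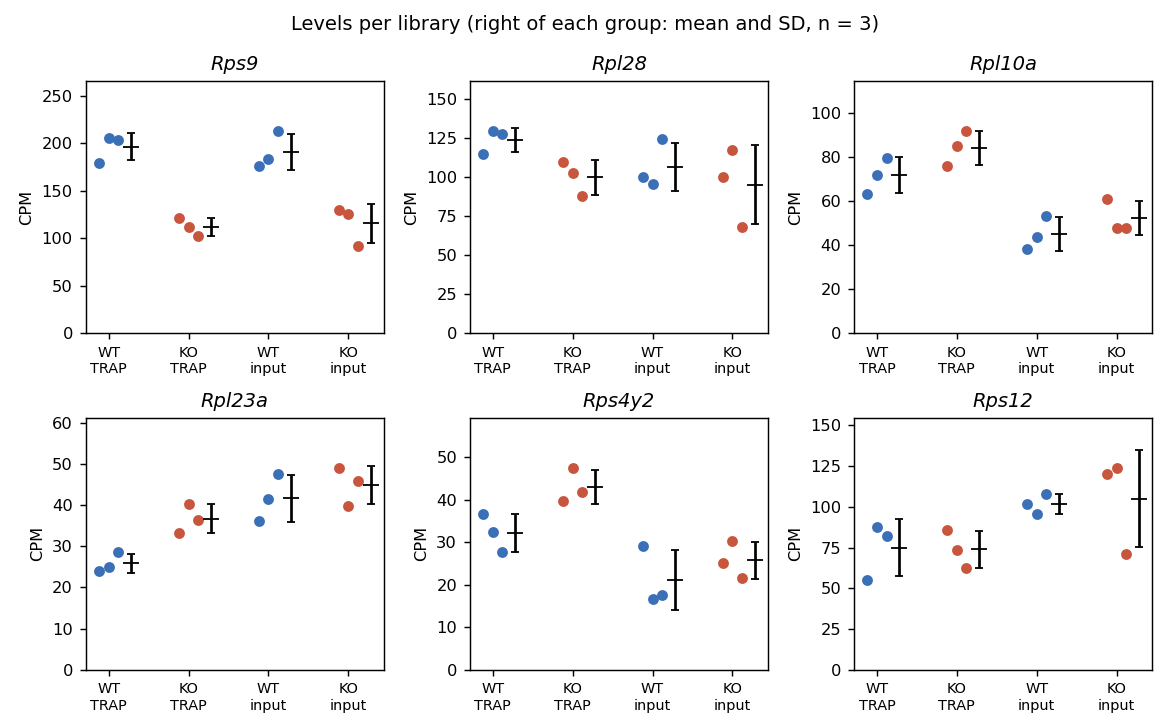
Levels in CPM (vertical axis, from 0) of Rps9, Rpl28, Rpl10a, Rpl23a, Rps4y2 and Rps12 in each library (dots), with the group mean and SD to the right of the dots (n = 3). The 6 KO libraries of Rps9 lie below its 6 WT libraries, and the 6 TRAP libraries of Rpl10a lie above its 6 input libraries.

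The stalk of the large subunit, where elongation factors bind, is made of Rplp0 and of dimers of Rplp1 and Rplp2. Their log2 ratios of TRAP to input were 0.11 (SE 0.14), -0.27 (SE 0.15) and 0.15 (SE 0.08), and none passed the test with all libraries, although Rplp1 did without WT pool 2 (-0.39, adjusted p = 0.0468 with edgeR) and Rplp2 without WT pool 1 (0.22, adjusted p = 0.0459). Genes with a near namesake differed in places. Rpl22 had a ratio of -0.25 (SE 0.09, adjusted p = 0.0260 with edgeR), an adjusted p that rose to between 0.0635 and 0.105 without WT pool 1, WT pool 3 or any of the KO pools, while its like copy Rpl22l1 had a ratio of 0.32 (SE 0.15, adjusted p = 0.0735) that passed the test without WT pool 1 or KO pool 3. Rpl7 and Rpl7l1 had nearly the same ratio, 0.15 (SE 0.08) and 0.16 (SE 0.12), and neither was called with all libraries; without KO pool 2, Rpl7 was (0.22, adjusted p = 0.0497 with edgeR). Rps27l, at 4.75 to 14.0 CPM in single libraries, had a ratio of 0.16 (SE 0.28), and pool values from -1.07 to 1.14.

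The other genes of the ribosome and its assembly were read beside these, from lists chosen by function, against the same background of 20.1% of all genes higher and 22.7% lower. Of 5 ribosomal genes outside the symbol rule, Rpl36al was higher in TRAP with a log2 ratio of 0.62 (SE 0.14) in 6 of 6 pools, and Rpsa, which encodes a small-subunit protein, was lower with a ratio of -0.44 (SE 0.08) in 6 of 6 pools. Of 17 translation factors and related genes with TOP messages, 6 were higher and 1 was lower, with a median of 0.10. Eef1a2, the elongation factor form of neurons and muscle, rose by 0.59 (SE 0.06), Eef1a1, its widespread counterpart, had a ratio of -0.001 (SE 0.07), and Pabpc1, a poly(A)-binding protein, had a ratio of -0.65 (SE 0.07). Of 40 ribosome biogenesis factors, 20 were higher and 1 was lower, with a median of 0.36. Rrs1 rose by 0.71 (SE 0.15) and Ubtf, a factor of RNA polymerase I transcription, by 0.62 (SE 0.07). Of 72 mitochondrial ribosomal protein genes tested, 52 were higher and 0 were lower with edgeR, with a median of 0.46 and 55 genes at an unadjusted p under 0.05. The cytosolic ribosomal protein genes, with 15 of 79 higher and a median of -0.004, thus lay under both of the last lists in this comparison, and the difference between lists was not tested. In the same comparison 4 of 6 neuron markers and 3 of 3 glutamate neuron markers were higher in TRAP, with medians of 0.50 and 0.26, and all 5 astrocyte, 5 oligodendrocyte, 5 microglia and 3 GABA neuron markers were lower in TRAP, with medians from -1.65 to -4.17, as was the 1 of 3 endothelium markers that could be tested. In bulk samples, fewer cells of a type and less RNA per cell cannot be told apart, and the part of the cell types in the ratios of the ribosomal protein genes was not tested.

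KO was next compared with WT in TRAP, the question being which messages on tagged ribosomes change with loss of FosB. One of the 79 genes was called, Rps9, which was lower in KO. This is 1.27% of the genes, compared with 0.0682% of the 11727 genes tested. The 79 log2 changes had a median of -0.01 and an SD of 0.18, against -0.002 and 0.33 over all genes tested, and 36 were above and 43 below 0. The groups did not overlap for 8 genes (10.1%), 6 lower and 2 higher in KO, compared with 11.9% of all genes tested. The median depended on single libraries, as the shifts above imply, and stood at -0.11 without WT pool 1 and at 0.10 without WT pool 2. The typical SE of a gene was 0.13. Neither Rpl23a, at 142% of WT, nor Fosb, at 59.0%, was called with edgeR. Changes of that size could therefore be missed at this depth and number of pools. GABA neuron markers, at 79.1 to 386 CPM in KO TRAP against 94.0 to 143 CPM in WT TRAP, were uneven in KO, with the highest sum in KO pool 2 and both other KO libraries below every WT library. Without KO pool 2 the count called was again 1 and the change of Rps9 was -0.87 (SE 0.13, adjusted p = 0.00165 with edgeR); the part of these markers in the changes was not tested.

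Rps9 (mm9 chr7:3655595-3658503, plus strand) encodes a small-subunit protein. It had 180, 206 and 203 CPM in the TRAP libraries of WT and 121, 112 and 102 CPM in those of KO. In input it was at 176, 184 and 213 CPM in WT and at 130, 125 and 91.6 CPM in KO. All KO libraries were thus below all WT libraries in TRAP and in input alike. In TRAP the log2 change was -0.81 (SE 0.11, adjusted p = 0.000439 with edgeR), which puts KO at 56.9% of WT with a 95% confidence interval of 48.5% to 66.6%. The change ranged from -0.87 to -0.75 over 14 alternatives, and it passed the test in each. Without the TRAP library of WT pool 1, whose ribosomal protein counts were low as a whole, it was -0.87. The ratio of TRAP to input of Rps9 was -0.003 (SE 0.09). Of its 75-base stretches 36.4% have an identical copy elsewhere, and the 1 annotated pseudogene it matched had 0 reads, so adding pseudogene counts left the counts of Rps9 as they were and did not test for misplaced reads.

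In input, none of the 79 genes was called with edgeR, 1 had an unadjusted p under 0.05, and 1 was called with DESeq2, compared with 0.0312% of 12816 genes called with edgeR and 0.0624% with DESeq2. That gene was again Rps9, with a log2 change of -0.72 (SE 0.14, adjusted p = 0.112 with edgeR), or 60.5% of WT. It passed the test without a filter on expression (adjusted p = 6.82e-05), with DESeq2 (adjusted p = 0.00644) and with the pool number as a block (adjusted p = 0.0156), and not in the other 11 alternatives. The block by number rests on WT and KO pools 2 and 3, whose shared numbers stand for different mice. Without a block, the median change of the 79 genes was -0.02. The groups did not overlap for 2 genes, Rps9 and Rps27 (2.53%), both lower in KO, compared with 8.38% of all genes. Among the other 78 genes, the changes ran from -0.43 to 0.51 in TRAP and from -0.50 to 0.35 in input.

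**Figure D4:**
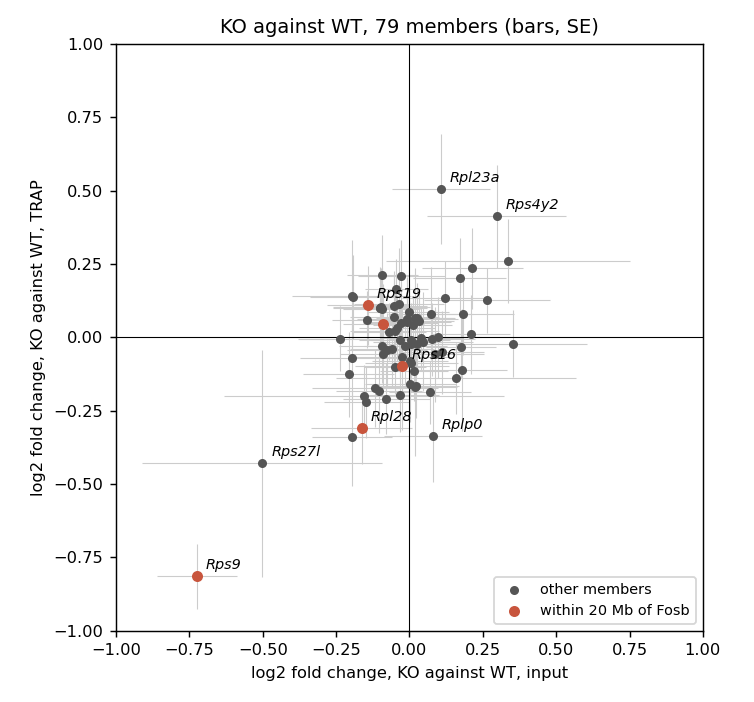
Log2 fold change of KO against WT in input (horizontal axis) and in TRAP (vertical axis) for the 79 genes, with standard errors; red points are the 5 genes within 20 Mb of Fosb. Rps9 lies at -0.72 in input and -0.81 in TRAP, and the other genes lie closer to 0 on both axes.

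The difference of the KO effect between TRAP and input was tested as an interaction over all 12 libraries. None of the 79 genes was called with edgeR or with DESeq2 and 0 had an unadjusted p under 0.05, compared with 0.00757% of 13214 genes called with either tool. For Rps9 the difference was -0.09 with a 95% confidence interval of -0.45 to 0.28. The largest differences were those of Rplp0, -0.41 (SE 0.27), and Rpl23a, 0.40 (SE 0.24). The median confidence interval of a gene spanned 0.83 on the log2 scale, so differences of this size between TRAP and input would often be missed.

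Besides Rps9, the genes with the smallest p in TRAP were Rpl28 and Rplp0 on the lower side and Rpl23a, Rps4y2 and Rpl36a on the higher side, none with an adjusted p under 0.05 in edgeR's test. Rpl23a, a large-subunit gene, ran from 24.1 to 28.5 CPM in the WT libraries of TRAP and from 33.3 to 40.3 CPM in the KO libraries, with a log2 difference of 0.51 (SE 0.19, adjusted p = 0.728). The groups did not overlap in TRAP but did in input, where the difference was 0.11 (SE 0.17). In TRAP, Rps4y2 had 36.5, 32.3 and 27.7 CPM in WT and 39.7, 47.4 and 41.9 CPM in KO, a log2 difference of 0.41 (SE 0.18, adjusted p = 0.784). Rplp0 differed by -0.34 (SE 0.16) with overlapping groups, since WT pool 1 at 102 CPM was below KO pool 2 at 114 CPM. Rpl36a differed by 0.26 (SE 0.14). In input small p-values after that of Rps9 belonged to Rps3a at -0.24 (SE 0.14) and Rpl11 at -0.20 (SE 0.14) on the lower side and to Rpl7 at 0.18 (SE 0.12) and Rps27a at 0.35 (SE 0.25) on the higher side, each with overlapping groups. Rpl10a differed by 0.24 (SE 0.14) in TRAP and by 0.21 (SE 0.17) in input, so the message of the tagged protein was not called different between genotypes.

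Rps9 lies on the chromosome of Fosb, 16.2 Mb from it on the side of the centromere. Of 14 ribosomal protein genes on chromosome 7, 5 lie within 20 Mb of Fosb. Rpl28 (mm9 chr7:4744476-4746164, plus strand), a large-subunit gene 15.1 Mb from Fosb and the member nearest to Rps9, had 115, 129 and 128 CPM in WT and 110, 103 and 87.6 CPM in KO in the TRAP libraries, a log2 difference of -0.31 (SE 0.12, adjusted p = 0.747 with edgeR). In input its groups overlapped, with a difference of -0.16 (SE 0.17). Rps19 and Rps16, at 5.77 and 9.24 Mb, differed by 0.11 (SE 0.13) and -0.10 (SE 0.22) in TRAP. The 9 genes at 32.5 to 129 Mb lay between -0.09 and 0.11 in TRAP and between -0.06 and 0.08 in input. Over all genes within 20 Mb of Fosb, 35 of 291 had an unadjusted p under 0.05 in TRAP, against 709 of all 11727 genes tested, and 37 of 313 in input, against 371 of 12816. KO mice differ from WT mice by the floxed allele on this chromosome, and loss of FosB and sequence linked to the floxed allele cannot be told apart in this design.

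**Figure D5:**
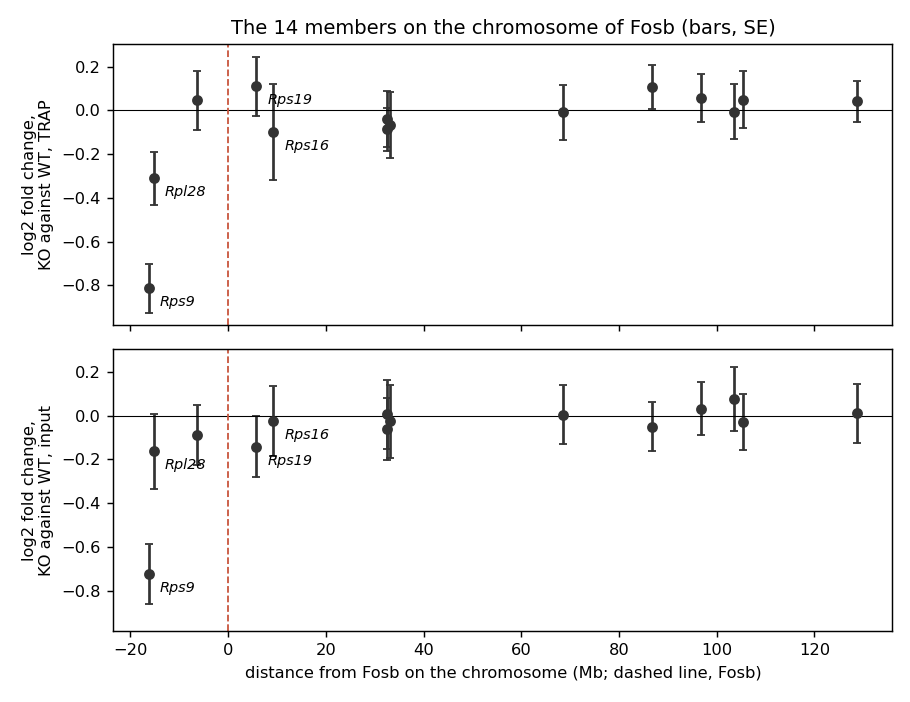
Log2 fold change of KO against WT in TRAP (upper panel) and in input (lower panel) for the 14 ribosomal protein genes of chromosome 7, by distance from Fosb in Mb, with standard errors. Rps9, at 16.2 Mb on the left, is lowest in both panels, and the 9 genes beyond 20 Mb lie between -0.09 and 0.11.

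The related lists held no gene called between genotypes. In TRAP, 0 of 17 translation factors, 0 of 40 biogenesis factors and 0 of 72 mitochondrial ribosomal protein genes passed edgeR's test, with 0, 3 and 3 genes at an unadjusted p under 0.05 and medians of 0.07, -0.11 and -0.07. In input the counts were again 0, with 0, 0 and 2 genes at an unadjusted p under 0.05 and medians of 0.0003, -0.01 and -0.01. Rpl36al, the ribosomal gene outside the symbol rule that was high in TRAP, differed by -0.40 between KO and WT in TRAP without passing the test.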

How the data were processed

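TRAP and input libraries (SMARTer Stranded Total RNA-Seq kit) were made from 6 pools of mice, and groups follow the sample labels. The files deposited by the authors hold unnormalized counts of uniquely aligned reads on each Gencode vM1 gene, from HTSeq-count on TopHat alignments to mm9; the strand setting is not given in the sources used here, so overlapping genes are uncertain (14 genes are overlapped on the other strand and 16 on their own). Reads with several alignments were set aside by the counting, and total reads on genes limit the precision to a floor of 3 counts, or 0.534 to 0.878 CPM, for counting error only. The tests ran under R 4.3.3 in edgeR 4.0.16 (filter on expression by the groups in each fit, TMM, robust quasi-likelihood test), on all genes, with Benjamini-Hochberg adjustment across every gene in the fit. Standard errors are the absolute log2 fold change over the square root of F. Pool ratios and library shifts use log2(CPM + 0.5). TRAP against input was fitted over 12 libraries with genotype as a covariate, KO against WT within TRAP and within input, and the difference as an interaction. P-values of KO against WT measure the spread between pools. Those of TRAP against input and of the interaction measure the spread between libraries, with both libraries of a pool treated as independent. TRAP and input libraries with the same number in a genotype come from the same pool of mice, by the labels and methods, and the deviations of the pair from their group means correlated at 0.0582 to 0.106 across 13214 genes. The numbers shared by WT and KO stand for different mice.

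Transcripts (the most common coding length per gene) were cut into all 75-base stretches and aligned with minimap2 2.31. The steps were tested on simulated data. Genes named were those called between genotypes, in each direction the 3 of smallest p between genotypes, the 6 highest and 6 lowest ratios of TRAP to input, Rpl10a, stalk genes, like copies, genes within 20 Mb of Fosb, the 3 highest and lowest levels per kilobase and those next to the threshold; genes of other lists were picked with their values in view. The genes, lists and tests were chosen with earlier results of these data known. Alternatives were RLE, total counts, no filter, a mean of 10 counts, no mitochondrial genome genes, DESeq2 1.42.0, counts summed with pseudogenes, a pool block, each genotype alone and leaving out each pool. RefSeq starts were not matched for 22 genes, Rpl23a, Rps4y2, Rpl7 and Rplp1 among them. Some genes that the naming rule covers are not reported here.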

Additional observations from a re-analysis of the deposited data

How the results depend on the processing

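The number of ribosomal protein genes called between TRAP and input was 24; it fell to 10 in WT libraries alone and to 13 in KO libraries alone, which hold fewer samples, and ran from 21 to 27 without each pool in turn. With the pool as a replicate block it was 27, with Rpl12 lost and Rps4x, Rps19, Rps20 and Rps29 gained, and it was 29 without a filter on expression. Of all genes tested, 44.4% were called with the block and 28.1% without a filter, against 34.2% and 36.7% of the ribosomal protein genes. Between KO and WT in TRAP the count was 1 in every alternative, the replicate block and each left-out pool included. In input it was 0, and 1 without a filter, with DESeq2 and with the pool number as a block; in each case the gene was Rps9. Numbers 2 and 3, shared by WT and KO, stand for different mice, and same-numbered libraries had correlations of their deviations between -0.0696 and 0.00294. The interaction gave 0 in every alternative, the replicate block included, and the block changed no other call. No gene named reversed its direction with a call in either fit. Without mitochondrial genome genes the share of counts rose from 1.17% to 1.25% in WT input and from 1.15% to 1.25% in KO input, and stayed at 1.17% and 1.18% in TRAP. The causes of these changes, the fewer samples of single genotypes included, were not tested. With 3 libraries a group, a difference in the summed share of the size of the spread within WT TRAP could not be seen.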

Other observations

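Annotated pseudogenes that matched the transcripts of these genes numbered 468, of which 354 had at least 1 read and 72 had a mean count of 10 or more. Together they took 0.0464% to 0.0622% of the counts of a library. Of 100 pseudogenes that passed the filter, 3 were higher and 3 were lower in TRAP than in input with edgeR's test, compared with 20.1% and 22.7% of all genes tested, and the median log2 ratio was -0.03. Rpl38-ps2, matched by Rpl38, was higher in TRAP by 0.41 (SE 0.16, adjusted p = 0.0353), whereas Rpl38 had a ratio of 0.09 (SE 0.15). Rpl10a-ps1, matched by Rpl10a, had a ratio of -0.25 (SE 0.20), whereas Rpl10a was higher in TRAP. Of 68 tested between KO and WT in TRAP, 0 were called with edgeR and 3 had an unadjusted p under 0.05. These pseudogenes were named after their values were seen.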
